A study of Mus musculus with 8 samples.

Results

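Syndecans and glypicans are the main heparan sulfate proteoglycans of the cell surface. The 8 genes described here, chosen by symbol from the deposited count table of 37310 genes, were the syndecans Sdc1, Sdc2, Sdc3 and Sdc4 and the glypicans Gpc1, Gpc3, Gpc4 and Gpc6. RNA-seq was done on NMuMG cells, an immortalised epithelial line from normal mouse mammary gland, in 4 groups of 2 libraries. The groups were untreated control cells, control cells given TGFβ1 at 10 ng/ml for 2 h, untreated cells labelled KO for the non-coding RNA Lnc-Nr6a1, and cells labelled KO given TGFβ1 in the same way. The KO cells carry a homozygous CRISPR-Cas9 deletion that takes out the Lnc-Nr6a1 promoter together with exon 1, and were grown as clones. How many clones the 2 libraries of a group stand for is not given in the sources used here, and no label says that replicates were separate cultures. The study's methods call them biological replicates without saying what was separate, so the p-values measure the spread between these libraries, part of which may be technical. In the comparisons of genotypes, a difference due to the deletion and a difference between clones cannot be told apart.

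Every syndecan has a short cytoplasmic tail, a single membrane-spanning segment and an extracellular part to which heparan sulfate chains are attached, whereas glypicans are held in the outer leaflet of the membrane by a glycosylphosphatidylinositol anchor. The sulfated chains bind growth factors, Wnt and Hedgehog proteins, chemokines and matrix proteins, and can present them to their signalling receptors. In mammary epithelium, SDC1 is the syndecan best known at the basolateral surface, and TGF-β is known to act on syndecan expression in cells that undergo epithelial-mesenchymal transition (EMT). The comparisons asked how the members differed between genotypes, how they responded to TGF-β and whether the response differed between genotypes.

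The libraries held between 4297832 and 13574397 counted reads, the smallest being KO replicate 1, and the median gene differed between replicates by 0.20 to 0.33 on the log2 scale. Lnc-Nr6a1, listed as Gm13507, had 3 and 14 counts in untreated control libraries and 11 and 7 counts in untreated libraries labelled KO, so that the untreated libraries did not show the labelled loss. After TGF-β it had 25 and 35 counts in control libraries and 0 counts in both libraries labelled KO. For this reason the groups are called by their label throughout. By RT-qPCR, the paper reports a complete loss of the Lnc-Nr6a1 isoforms in clones with the deletion on both alleles. The early TGF-β response genes Smad7, Skil and Snai1 were all higher after treatment in both genotypes. Of 8 epithelial markers, 5 passed the filter on low counts, among them Cdh1 and the keratins Krt8, Krt18 and Krt19. Cldn3 and Esrp1 were at 0 in every library, and Epcam had at most 3 counts in any library. The summed epithelial markers reached 5913 to 5988 CPM (counts scaled to library size with TMM factors) in control libraries, 6677 to 7009 CPM in libraries labelled KO, 8067 to 10961 CPM in treated control libraries and 7973 to 10419 CPM in treated libraries labelled KO, and the part of this difference in the results was not tested. With TGF-β in control cells, Krt8 and Krt18 changed by 0.65 and 0.96 (log2 scale), and Cdh1, Krt19 and Ocln by 0.06, −0.08 and −0.07. In cells labelled KO, Krt8, Krt18 and Cdh1 changed by 0.58, 0.48 and 0.52, and Krt19 and Ocln by −0.08 and −0.33. The summed markers of fibroblasts, endothelial cells and haematopoietic cells stayed at or below 5.71 CPM in every library.

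The proximal promoters of 3 syndecans are shown as the 250 bases before the RefSeq transcription start (GRCm38.p6), 5′ to 3′ on the gene's own strand. Sdc3 is shown because it was the member that changed in all 4 pairwise comparisons, and Sdc1 and Sdc4 because they were the most abundant members. The windows are chr4:130792287-130792536 on the plus strand for Sdc3, chr12:8771146-8771395 on the plus strand for Sdc1 and chr2:164443189-164443438 on the minus strand for Sdc4. Capitals mark matches on either strand to CAGAC, the core of a SMAD-binding element, and to GGGCGG, a GC box.
Sdc3: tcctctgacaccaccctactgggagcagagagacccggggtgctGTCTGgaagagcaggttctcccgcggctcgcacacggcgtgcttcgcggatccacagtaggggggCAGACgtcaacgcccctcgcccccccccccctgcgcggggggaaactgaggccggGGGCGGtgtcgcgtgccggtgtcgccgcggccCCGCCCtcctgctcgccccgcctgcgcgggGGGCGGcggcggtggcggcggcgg
Sdc1: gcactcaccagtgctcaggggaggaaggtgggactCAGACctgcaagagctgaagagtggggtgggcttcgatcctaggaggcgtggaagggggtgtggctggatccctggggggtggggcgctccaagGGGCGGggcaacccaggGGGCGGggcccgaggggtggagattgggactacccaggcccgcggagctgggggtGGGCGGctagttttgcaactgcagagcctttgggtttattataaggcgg
Sdc4: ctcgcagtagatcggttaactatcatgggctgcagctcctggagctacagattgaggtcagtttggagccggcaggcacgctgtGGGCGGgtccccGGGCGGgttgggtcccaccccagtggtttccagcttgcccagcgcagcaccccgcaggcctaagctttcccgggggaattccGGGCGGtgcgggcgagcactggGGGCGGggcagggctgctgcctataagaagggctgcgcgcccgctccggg

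The Sdc3 window held 2 SMAD-element cores and 3 GC boxes, the Sdc1 window 1 core and 3 GC boxes, and the Sdc4 window 4 GC boxes and no core. None of the 3 windows held an AP-1 site (TGANTCA) or the E-box CACCTG. Among 32851 mouse promoters of the same length, 42.2% held CAGAC, 32.7% held GGGCGG, 6.75% held TGANTCA and 17.2% held CACCTG, so a SMAD core or a GC box is a frequent feature. The reference table held windows for 5 of the 8 members, including Gpc3 and Gpc4 but not Sdc2, Gpc1 or Gpc6. A match of letters is a description and not a bound site.

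Of the 8 members, 6 had enough reads to be tested. Gpc3 and Gpc4, neighbouring genes on the X chromosome (NCBIM37 coordinates chrX:49625603-49967127 and chrX:49406198-49518429, both on the minus strand) that lie 107 kb apart, were at 0 counts in all 8 libraries. A limit of 3 counts corresponds to 0.238 to 0.661 CPM, depending on the library. At this depth the transcripts of Gpc3, a glypican best known as a regulator of Hedgehog and Wnt signalling in the embryo, and of Gpc4 were not detectable. The remaining members of the glypican family, which are not among the 8 genes, were close to absence too, with Gpc5 at 0 counts in every library and Gpc2 at 1 count in control replicate 2, 6 counts in TGF-β-treated control replicate 1 and 0 in the others. Gpc2 shares exonic sequence with Gal3st4 on its own strand, which was at 0 counts in every library, and with 6330418K02Rik on the opposite strand, which had 14 to 29 counts, so its few reads are of uncertain origin. Gpc6 lies 401 kb from Gpc5 on chromosome 14 and, unlike it, was detected in every library.

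Sdc1 and Sdc4 were the dominant members. On a per-length scale (RPKM, counts scaled for library size and exon length), Sdc1 averaged 163 RPKM over the 8 libraries, above 97.2% of the genes tested, and Sdc4 averaged 128 RPKM, above 96.4%. Gpc1 followed with 56.8 RPKM, above 90.7% of the genes tested, and Sdc3 with 17.3 RPKM, above 68.5%. Gpc6 averaged 1.26 RPKM and Sdc2 0.575 RPKM, which placed them above 11.6% and 5.59% of the genes tested. In untreated control cells the order of mean levels was Sdc1 (134 ± 10.7 RPKM, SD, n = 2), Sdc4 (87.8 ± 5.66), Gpc1 (48.7 ± 16.2), Sdc3 (2.22 ± 0.282), Gpc6 (1.11 ± 0.0817) and Sdc2 (0.219 ± 0.153). Each neighbouring pair in that order was further apart than the larger of its SDs. In treated cells labelled KO, Sdc1 (197 ± 10.1 RPKM, SD, n = 2) and Sdc4 (178 ± 81.0) differed by less than the SD of Sdc4, and Sdc3 reached 42.7 ± 2.83 RPKM against 84.8 ± 8.44 for Gpc1.

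**Figure D1:**
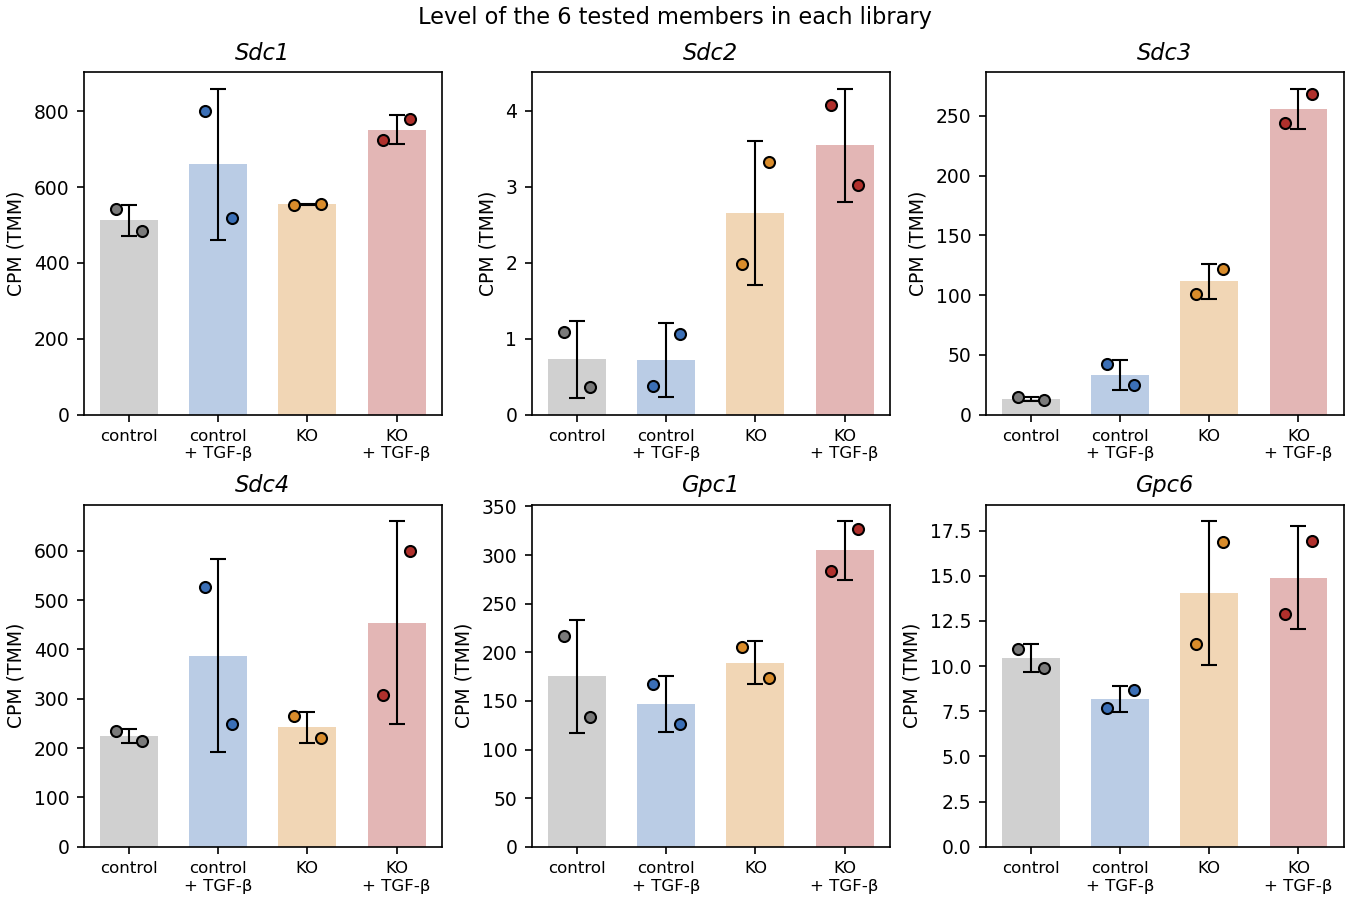
Level of each of the 6 tested members in CPM (y axis, linear, starting at 0) in the 4 groups (x axis; KO means libraries labelled KO). Points are libraries, bars are means and whiskers are the SD of 2 libraries. The Sdc3 panel rises from 12.1 to 14.5 CPM in control libraries to 244 and 268 CPM in treated libraries labelled KO, with no overlap between any of the 4 groups, whereas the Sdc1 panel spans only 483 to 801 CPM.

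Sdc3 (ENSMUSG00000025743.8, NCBIM37 chr4:130348452-130382234, plus strand) encodes the syndecan best known from neurons and the developing musculoskeletal system. It had 120 and 99 counts in untreated control libraries, 451 and 231 in treated control libraries, 459 and 917 in untreated libraries labelled KO, and 2994 and 3372 in treated libraries labelled KO. Scaled to library size these were 14.5 and 12.1 CPM, 42.3 and 24.4 CPM, 101 and 122 CPM, and 244 and 268 CPM. The 4 groups did not overlap, and even the lower untreated library labelled KO lay above both treated control libraries.

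Between the genotypes without TGF-β, Sdc3 was 8.40-fold higher in the libraries labelled KO, a log2 fold change of 3.07 ± 0.26 (SE) with an adjusted p of 7.64e-04 (edgeR quasi-likelihood test, Benjamini-Hochberg adjusted over 13028 genes). It was the only 1 of the 6 tested members to be called, which required an adjusted p under 0.05 and an absolute log2 fold change above 0.5, in a comparison where 1.83% of all tested genes were called and 1.03% were called higher. After TGF-β the difference was 7.66-fold, a log2 fold change of 2.94 ± 0.25 (SE) with an adjusted p of 4.77e-04. Both genotype calls were kept under every alternative run, with log2 fold changes of 2.93 to 3.21 without TGF-β and 2.61 to 3.38 with it.

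TGF-β raised Sdc3 in both genotypes. In control cells the level went from a mean of 13.3 ± 1.69 to 33.4 ± 12.6 CPM (SD, n = 2), a log2 fold change of 1.33 ± 0.25 (SE, edgeR adjusted p = 0.0156). In cells labelled KO it went from 112 ± 14.6 to 256 ± 16.9 CPM (SD, n = 2), a log2 fold change of 1.20 ± 0.23 (SE, edgeR adjusted p = 0.0170). The responses differed between genotypes by −0.13 ± 0.34 (SE, log2 scale), with a 95% interval of −0.90 to 0.63, and the test of that difference gave an edgeR adjusted p of 0.948. The call in control cells was lost without control replicate 1 (edgeR adjusted p = 0.0986), without control replicate 2 (0.111) and when only the 4 libraries compared were fitted (0.0533). That in cells labelled KO was lost without KO replicate 1 (edgeR adjusted p = 0.153), without KO replicate 2 (0.105) and without treated KO replicate 2 (0.0698).

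An antisense transcript, Gm12970, overlaps 48 exonic bases of Sdc3 and was at 0 counts in every library. The neighbourhood of Sdc3 on chromosome 4 was examined after its values were seen. Of the 6 nearest tested genes, 3 on each side and within 1097 kb, 0 were called between untreated genotypes by edgeR, DESeq2 or limma-voom and 0 had an unadjusted edgeR p under 0.05, with log2 fold changes of −0.20 to 0.23. After TGF-β, 1 of these 6 genes was called, the splicing factor gene Srsf4 (0.60 ± 0.17, SE, log2 scale, edgeR adjusted p = 0.0434), which DESeq2 did not call. Of the 6 nearest tested genes of Sdc2, 2 were called after TGF-β, Pgcp (1.80 ± 0.50, edgeR adjusted p = 0.0412) and Cct5 (−0.52 ± 0.12, 0.0243). For Gpc1, 1 of 6 was called, Rnpepl1 (1.04 ± 0.18, 0.00710). In that comparison 15.0% of all tested genes were called. The genes whose log2 CPM followed Sdc3 most closely over the 8 libraries were Car5b (Pearson r = 0.996), a mitochondrial carbonic anhydrase, Sod3 (0.995), the extracellular superoxide dismutase that binds heparan sulfate, and Gsn (0.986), the actin-severing gelsolin. These libraries share genotype and treatment, and the correlations are descriptions.

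Sdc2 (ENSMUSG00000022261.5, NCBIM37 chr15:32850478-32964485, plus strand), a syndecan typical of mesenchymal cells, was barely expressed. It had 9 and 3 counts in untreated control libraries, 4 and 10 in treated control libraries, 9 and 25 in untreated libraries labelled KO, and 50 and 38 in treated libraries labelled KO. These were 1.09 and 0.366 CPM, 0.375 and 1.06 CPM, 1.98 and 3.32 CPM, and 4.08 and 3.02 CPM. Libraries labelled KO were above control libraries with and without TGF-β, and control replicate 2 sat at the 3-count limit. The log2 fold change between genotypes was 1.88 ± 0.68 (SE, edgeR adjusted p = 0.232) without TGF-β and 2.31 ± 0.63 (SE, edgeR adjusted p = 0.0378) with it. The second value was called. Sdc2 passed the filter on low counts, which asks for 1.13 CPM (without TMM factors) in 2 libraries, through the libraries labelled KO, all 4 of which reached it, against 1 of the 4 control libraries. A gene kept in this way is more likely to be higher in libraries labelled KO. The call was lost in 8 of 17 alternatives, among them the fit with a replicate block (edgeR adjusted p = 0.0631), the fit of the 4 libraries alone (0.0864) and the fits without treated control replicate 1 (0.0954), treated KO replicate 1 (0.126) or treated KO replicate 2 (0.105). TGF-β moved Sdc2 by −0.04 ± 0.75 in control cells and by 0.38 ± 0.57 in cells labelled KO (log2 scale, SE), neither of which passed the test (edgeR adjusted p of 0.980 and 0.744).

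Sdc1 (ENSMUSG00000020592.8, NCBIM37 chr12:8778129-8800521, plus strand), the epithelial syndecan, did not pass the test in any comparison. Its levels were 541 and 483 CPM in untreated control libraries, 801 and 519 CPM in treated control libraries, 553 and 556 CPM in untreated libraries labelled KO, and 724 and 779 CPM in treated libraries labelled KO. The treated control libraries differed from each other more than the untreated genotypes did. The difference between untreated genotypes was 0.11 ± 0.19 (SE, log2 scale), with a 95% interval of −0.31 to 0.54 that leaves out a change of the size seen for Sdc3. After TGF-β it was 0.19 ± 0.19, with an interval of −0.24 to 0.61. TGF-β gave 0.37 ± 0.19 in control cells and 0.44 ± 0.19 in cells labelled KO (log2 scale, SE; edgeR adjusted p of 0.250 and 0.211). Without treated control replicate 2 the value in control cells was 0.62 (edgeR adjusted p = 0.0330), and without treated control replicate 1 the genotype difference after TGF-β was 0.53 (0.0329).

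Sdc4 (ENSMUSG00000017009.3, NCBIM37 chr2:164249747-164269387, minus strand), the syndecan of focal adhesions, had 234 and 213 CPM in untreated control libraries, 526 and 249 CPM in treated control libraries, 264 and 220 CPM in untreated libraries labelled KO, and 308 and 600 CPM in treated libraries labelled KO. In both genotypes each treated library was above each untreated library of that genotype, but the treated replicates lay far apart. The TGF-β response was 0.79 ± 0.36 (SE, log2 scale, edgeR adjusted p = 0.191) in control cells and 0.91 ± 0.36 (SE, edgeR adjusted p = 0.171) in cells labelled KO. With DESeq2 in place of edgeR the latter was called at an adjusted p of 0.0404. Single libraries also decided these values, since without treated control replicate 2 the response in control cells was 1.21 (edgeR adjusted p = 0.0459) and without treated KO replicate 1 that in cells labelled KO was 1.32 (0.0465). Between genotypes Sdc4 differed by 0.11 ± 0.36 (SE, log2 scale, 95% interval −0.69 to 0.92) without TGF-β and by 0.23 ± 0.35 (95% interval −0.57 to 1.02) with it. Sdc1 and Sdc4 varied together over the 8 libraries (Pearson r = 0.91 of log2 CPM), a description in which treatment and library are shared.

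Gpc1 (ENSMUSG00000034220.6, NCBIM37 chr1:94728222-94756775, plus strand; the miRNA gene Mir149 lies in an intron) was the dominant glypican. It had 217 and 134 CPM in untreated control libraries, 167 and 126 CPM in treated control libraries, 205 and 173 CPM in untreated libraries labelled KO, and 283 and 326 CPM in treated libraries labelled KO. The treated libraries labelled KO were above all others, and the other 6 libraries lay between 126 and 217 CPM. After TGF-β, Gpc1 was 2.07-fold higher in the libraries labelled KO than in control libraries, a log2 fold change of 1.05 ± 0.23 (SE) with an edgeR adjusted p of 0.0183. It was 1 of 3 members called in that comparison, with Sdc3 and Sdc2, where 15.0% of all tested genes were called and 8.47% were called higher. Without TGF-β the genotypes differed by 0.11 ± 0.23 (SE, log2 scale, 95% interval −0.41 to 0.63, edgeR adjusted p = 0.870). The call after TGF-β was lost without treated control replicate 2 (edgeR adjusted p = 0.0693) and without treated KO replicate 2 (0.0839).

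TGF-β gave Gpc1 log2 fold changes of −0.25 ± 0.23 (SE) in control cells and 0.69 ± 0.23 in cells labelled KO, with edgeR adjusted p of 0.519 and 0.117. In cells labelled KO the value was called by DESeq2 (adjusted p = 0.0389) and by edgeR on the 4 libraries compared (0.0337). The difference between these responses was 0.94 ± 0.33 (SE, log2 scale, 95% interval 0.21 to 1.68), which had an unadjusted edgeR p of 0.0175 and an adjusted p of 0.497. The genes closest to Gpc1 in pattern over the 8 libraries were Tmem85 (Pearson r = 0.978), a subunit of the membrane protein insertion complex of the endoplasmic reticulum, Qsox1 (0.972), a secreted sulfhydryl oxidase, and Arfgap2 (0.966), a regulator of Golgi transport. For Sdc2, with its low counts, they were Ncoa1 (0.967), a nuclear receptor coactivator, Dok4 (0.963), a docking protein of receptor tyrosine kinases, and Galns (0.963), a lysosomal sulfatase of keratan and chondroitin sulfate.

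Gpc6 (ENSMUSG00000058571.4, NCBIM37 chr14:117324519-118378751, plus strand) was low in every group, with 11.0 and 9.89 CPM in untreated control libraries, 7.68 and 8.68 CPM in treated control libraries, 11.2 and 16.9 CPM in untreated libraries labelled KO, and 12.9 and 16.9 CPM in treated libraries labelled KO. Each library labelled KO was above each control library of the same treatment. The log2 fold change between genotypes was 0.45 ± 0.28 (SE, edgeR adjusted p = 0.502) without TGF-β and 0.87 ± 0.27 (SE, edgeR adjusted p = 0.0595) with it, and neither was called. TGF-β gave −0.35 ± 0.28 in control cells and 0.07 ± 0.27 in cells labelled KO (log2 scale, SE), with edgeR adjusted p of 0.450 and 0.910.

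**Figure D2:**
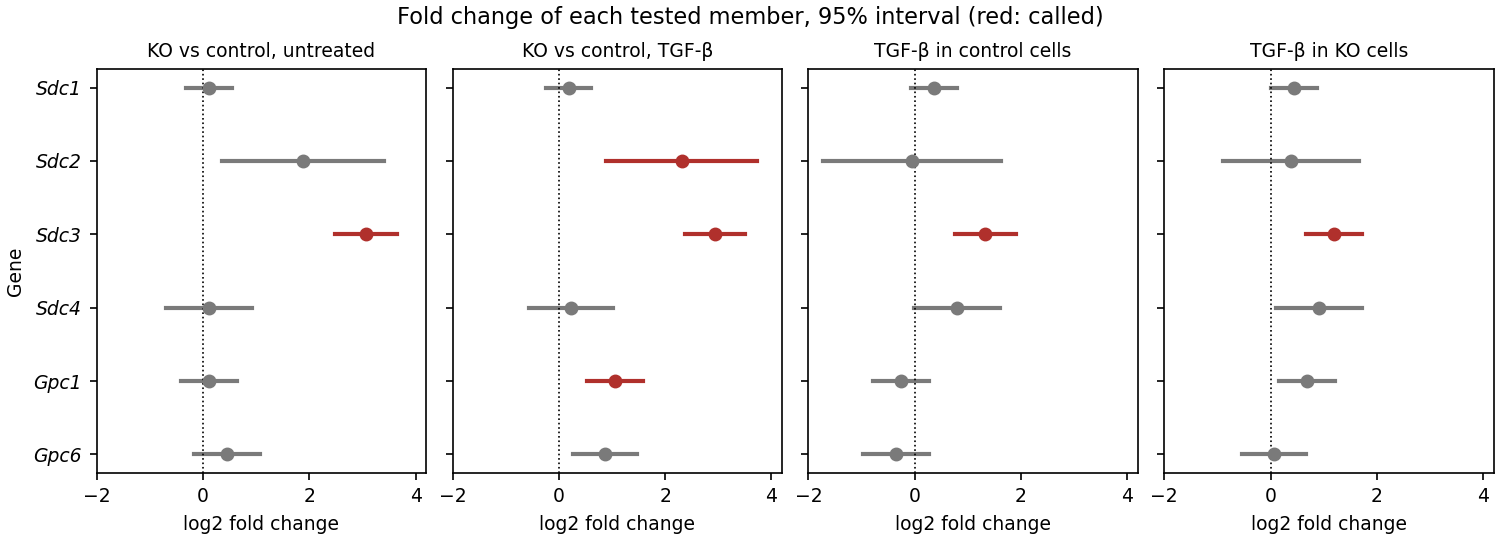
Log2 fold change (x axis) of the 6 tested members (y axis) in the 4 pairwise comparisons, as points with 95% intervals of the edgeR fit, red where called. Sdc3 is the only member called in all 4 panels, at 3.07, 2.94, 1.33 and 1.20, while Sdc2 and Gpc1 are called only between genotypes after TGF-β.

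Counted over the 6 tested members, 1 was called between untreated genotypes and 3 after TGF-β, all higher in libraries labelled KO. Of all tested genes, 1.83% were called between untreated genotypes (1.03% higher) and 15.0% after TGF-β (8.47% higher). Without Sdc2 the member counts were 1 and 2 of 5. TGF-β called 1 member in control cells, where 9.16% of all tested genes were called (4.69% higher), and 1 in cells labelled KO, where 6.82% were called (4.25% higher). In both genotypes that member was Sdc3. The comparisons share groups, so these counts are not independent of each other. The median log2 fold change of the tested members was 0.28 between untreated genotypes, 0.96 between treated genotypes, 0.16 for TGF-β in control cells and 0.56 for TGF-β in cells labelled KO, while the median of all tested genes lay between −0.01 and 0.02 in each. Without Sdc2 the member medians were 0.11, 0.87, 0.37 and 0.69 in the same order. The counts and medians are descriptions. For the difference of TGF-β responses, edgeR called 0 members and 0% of all tested genes, with 1 member at an unadjusted p under 0.05, and DESeq2 and limma-voom called 0 members too. In these bulk libraries, fewer cells with a transcript and less transcript per cell cannot be told apart.

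Since Sdc1 and Sdc4 stayed high in every group, they made up most syndecan RNA throughout. Of the summed syndecan RPKM, Sdc1 held 42.1% to 60.0% and Sdc4 34.1% to 48.7% over the 8 libraries, and Sdc2 at most 0.394%. The share of Sdc3 was 1.02% and 0.948% in untreated control libraries, 1.66% and 1.71% in treated control libraries, 6.34% and 8.02% in untreated libraries labelled KO, and 11.5% and 9.21% in treated libraries labelled KO. The shares of the 4 groups did not overlap. The summed syndecan level was 237 and 213 RPKM in untreated control libraries, 424 and 238 RPKM in treated control libraries, 266 and 254 RPKM in untreated libraries labelled KO, and 353 and 486 RPKM in treated libraries labelled KO. Among the glypicans, Gpc1 held 96.4% to 98.3% of the summed RPKM in every library and Gpc6 the rest. The shares are given as a description, with no test.

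**Figure D3:**
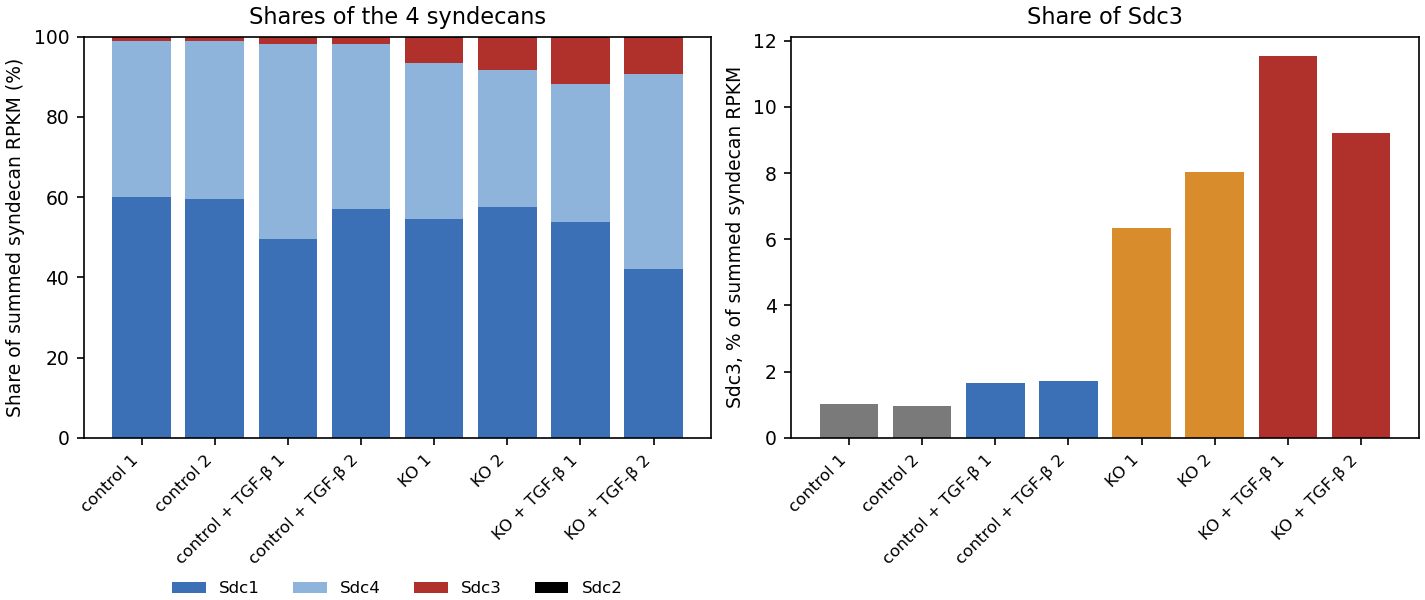
Share of each syndecan in the summed syndecan RPKM of each library, as stacked bars (left, %) and for Sdc3 alone (right, %, axis starting at 0). Sdc1 and Sdc4 fill most of every bar, and Sdc3 goes from 0.948% to 1.02% in untreated control libraries to 9.21% to 11.5% in treated libraries labelled KO.

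To place the members in their pathway, 58 other genes of heparan sulfate biology in 8 lists were counted in the same fit, 41 of which were tested. Between untreated genotypes 1 of them was called, where 1.83% of all tested genes were called and 1.03% were called higher, and the median log2 fold change of the 41 was 0.21. That gene was Sulf2, an extracellular sulfatase that removes 6-O-sulfate from heparan sulfate chains. It had 8.93 and 15.9 CPM in untreated control libraries, 9.46 and 7.30 CPM in treated control libraries, 30.9 and 35.1 CPM in untreated libraries labelled KO, and 49.2 and 55.5 CPM in treated libraries labelled KO. All libraries labelled KO exceeded all control libraries. The log2 fold change was 1.41 ± 0.27 (SE, edgeR adjusted p = 0.0344) without TGF-β and 2.64 ± 0.27 (SE, edgeR adjusted p = 9.97e-04) with it. The call without TGF-β was lost with the replicate block (edgeR adjusted p = 0.0542) and without control replicate 1 (0.193), KO replicate 1 (0.153) or KO replicate 2 (0.233).

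After TGF-β, 14 of the 41 pathway genes were called between genotypes, all of them higher in libraries labelled KO, with a median log2 fold change of 0.45 against −0.01 over all tested genes, of which 15.0% were called and 8.47% were called higher. This count was 2 when only the 4 treated libraries were fitted, and it moved over 1.5 times only without treated KO replicate 1 (9) or treated KO replicate 2 (5). The most complete list was that of lysosomal breakdown, whose enzymes take heparan sulfate chains apart, with 8 of 8 genes called higher and a median of 1.09. One of them, the sulfatase gene Arsg (chosen here after its values were seen), was kept by the filter on low counts through the libraries labelled KO, and without it 7 of 7 were called with a median of 0.94, and 13 of 40 over all the lists. The beta-glucuronidase gene Gusb was higher by 0.89 ± 0.14 (SE, log2 scale, edgeR adjusted p = 0.00497), the sulfamidase gene Sgsh by 1.50 ± 0.28 (0.00905) and the alpha-N-acetylglucosaminidase gene Naglu by 1.25 ± 0.26 (0.0156). Without TGF-β the same 8 genes had a median of 0.69, and edgeR called 0 of them, with 4 at an unadjusted p under 0.05, while limma-voom called 0 and DESeq2 called 1. After TGF-β the count was 8 with limma-voom, 7 with DESeq2 and 6 with a replicate block. The count of 8 fell to 4 without treated KO replicate 1, to 3 without treated KO replicate 2 and to 1 when only the 4 treated libraries were fitted.

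Of the assembly genes, Ndst1, which carries out N-deacetylation and N-sulfation of the chains, was higher after TGF-β in libraries labelled KO by 0.87 ± 0.15 (SE, log2 scale, edgeR adjusted p = 0.00689), and Extl3, which starts chain growth, by 0.63 ± 0.16 (0.0314). Of the 5 tested linker genes, edgeR, DESeq2 and limma-voom called 0 in any comparison, with at most 2 at an unadjusted edgeR p under 0.05. Fam20b missed a call for TGF-β in control cells by its fold change alone (0.46 ± 0.12, SE, log2 scale, edgeR adjusted p = 0.0488). Of the secreted proteoglycans, Col18a1, the collagen XVIII chain, was higher after TGF-β in libraries labelled KO by 1.10 ± 0.25 (SE, log2 scale, edgeR adjusted p = 0.0192) and Agrn, agrin, by 1.01 ± 0.24 (0.0233). The membrane metalloprotease gene Mmp14, a candidate sheddase of syndecans, was higher by 0.68 ± 0.14 (0.0145). Of the 6 tested cytoplasmic partners of syndecans, among them the syntenin gene Sdcbp, the same tools called 0 in any comparison, with at most 1 at an unadjusted edgeR p under 0.05. The calls of Ndst1, Extl3, Col18a1, Agrn and Mmp14 were each lost when only the 4 treated libraries were fitted, and that of Extl3 was lost in 8 of 17 alternatives.

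In control cells given TGF-β, 2 of the 41 pathway genes rose and 3 fell, with a median of −0.13, and in cells labelled KO 3 rose and 1 fell, with a median of 0.10. Over all tested genes 9.16% were called in control cells (4.69% higher) and 6.82% in cells labelled KO (4.25% higher), so these counts are near the background and are given for the genes named. Ext1, a subunit of the heparan sulfate polymerase, was raised from 143 and 159 CPM to 374 and 296 CPM in control cells and from 134 and 159 CPM to 285 and 343 CPM in cells labelled KO, log2 fold changes of 1.15 ± 0.17 (SE, edgeR adjusted p = 0.00505) and 1.10 ± 0.17 (0.00639). Nrp2, a co-receptor of semaphorins and vascular endothelial growth factors, rose by 1.02 ± 0.15 (SE, log2 scale, edgeR adjusted p = 0.00515) and 1.43 ± 0.16 (0.00122). The 3-O-sulfotransferase gene Hs3st3b1 went from 21.6 and 13.3 CPM to 4.59 and 5.50 CPM in control cells and from 17.2 and 15.7 CPM to 7.17 and 6.36 CPM in cells labelled KO. These were log2 fold changes of −1.79 ± 0.29 (SE, edgeR adjusted p = 0.00767) and −1.28 ± 0.29 (0.0306). Hs3st1, another 3-O-sulfotransferase gene, fell in control cells by 1.57 ± 0.28 (SE, log2 scale, edgeR adjusted p = 0.0106), and Mmp14 rose in cells labelled KO by 0.66 ± 0.14 (0.0250). Of these calls, that of Nrp2 in cells labelled KO was kept in every alternative run, whereas each of the others was lost without at least 1 library. For the difference of responses edgeR, DESeq2 and limma-voom each called 0 of the 41 genes, with 5 at an unadjusted edgeR p under 0.05.

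**Figure D4:**
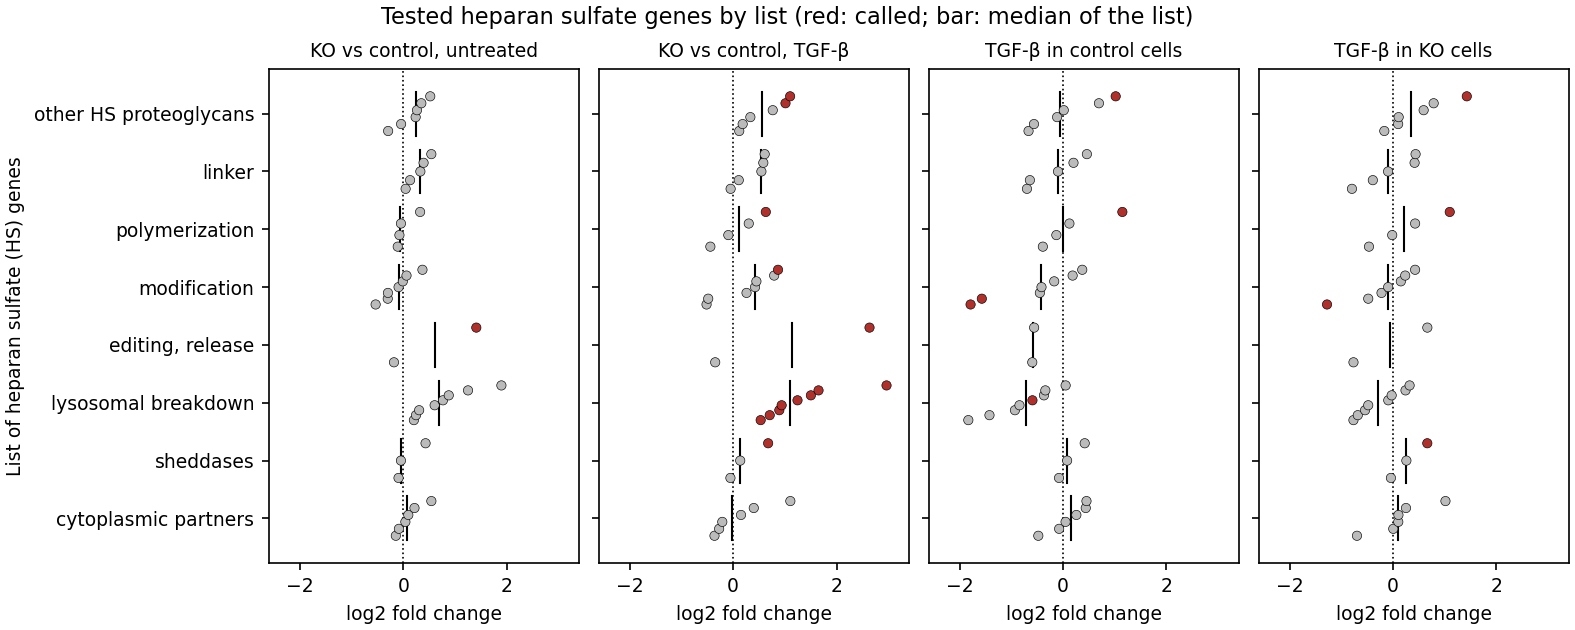
Log2 fold change (x axis) of the 41 tested heparan sulfate genes by list (y axis) in the 4 pairwise comparisons. Points are genes, red where called, and vertical bars are list medians. The 8 lysosomal breakdown genes are all red in the comparison of treated genotypes, with a median of 1.09 (0.94 without Arsg), and none is red between untreated genotypes.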

How the data were processed

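RNA was measured in 8 libraries of NMuMG cells. According to the labels, total RNA was isolated by RNeasy columns and made into libraries with a TruSeq stranded kit. The authors deposited raw read counts per gene, and the submitters' processing notes name HISAT2, limma and mm10. The study's methods instead describe TRIzol extraction, alignment with Rsubread, removal of duplicate reads and DESeq2. Whether duplicates were removed before the deposited counts were made is not given in the sources used here. How reads were assigned to genes, and whether by strand, is not given in the sources used here. Gene identifiers were the same 37310, in the same order, as in GENCODE vM1 (NCBIM37), from which positions and exon lengths were taken, so RPKM rests on that annotation.

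The 8 genes and the pathway lists were chosen with earlier results of these data known. Genes passing filterByExpr (13028) were fitted over all 4 groups with TMM factors and the quasi-likelihood test in edgeR 4.0.16 (R 4.3.3), without a block. The contrasts were the 2 genotype comparisons, the 2 TGF-β comparisons and their difference. A gene was called at a Benjamini-Hochberg adjusted p under 0.05 and an absolute log2 fold change above 0.5, or, for the difference of responses, by adjusted p alone. SE is the absolute log2 fold change over the square root of F. The scripts were tested on simulated data.

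Named were all members, called pathway genes (at most 4 per list and comparison, by p), the 3 genes most correlated with each called member in log2 CPM (prior count 2), and the label checks. A few genes that the rule takes are not reported here. Alternatives were DESeq2 1.42.0, limma-voom (limma 3.58.1), other size factors, other filters, a replicate block, the 4 libraries compared alone and leaving out each library. The 3-count limit covers counting error only. Replicates differed far beyond sampling noise, with a chi-square per degree of freedom of 5.96 to 34.9. Promoters came from RefSeq (GRCm38.p6), another build than that of the positions. Figures were drawn with matplotlib 3.10.9.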

Additional observations from a re-analysis of the deposited data

How the results depend on the processing

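The genotype differences of Sdc3 kept their call and direction under every alternative run. Over all values of single members under alternatives, 423 of 472 kept their side of the threshold and direction, 16 lost a call, 13 gained one and 20 changed sign, the last all on leaving out 1 library. Groups of 2 libraries limit each value, and counts of 3 to 50 limit Sdc2. The causes of the changes below were not tested, except that fitting 4 libraries or leaving 1 out uses fewer samples, with a lone library then assumed to vary like the other groups.

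The number of members called between untreated genotypes was 1 in each alternative. Between treated genotypes it was 3, against 4 without a filter, 2 with the 4 libraries compared, 1 to 3 on leaving out a library and 2 of 5 without Sdc2, a choice made after seeing the data. For TGF-β in control cells it was 1, against 2 without a filter on low counts, 0 with only the 4 libraries compared and 0 to 3 on leaving out a library. For TGF-β in cells labelled KO it was 1, against 3 with DESeq2, 3 without a filter, 2 with the 4 libraries and 0 to 2 on leaving out a library. All genes called for TGF-β in cells labelled KO rose too, from 889 to 1237 with DESeq2, 1832 without a filter and 929 with the 4 libraries, and in control cells from 1194 to 2021 without a filter, with 483 for the 4 libraries. For the difference of responses the number of members was 0, and 1 without a filter (Gpc1, adjusted p = 0.00939 in edgeR). Gpc6 between treated genotypes was called without a filter (edgeR adjusted p = 0.0242).

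Signs changed on leaving out a library for these log2 values, given as lowest and highest. Between untreated genotypes Gpc1 spanned −0.20 to 0.50 and Sdc4 −0.022 to 0.24. Between treated genotypes Sdc1 spanned −0.079 to 0.53 and Sdc4 −0.32 to 0.86. For TGF-β in control cells Gpc1 spanned −0.56 to 0.13 and Sdc2 −0.95 to 0.92, and for TGF-β in cells labelled KO Gpc6 spanned −0.18 to 0.41. For the difference of responses Sdc1 spanned −0.18 to 0.43, Sdc2 −0.54 to 1.34, Sdc3 −0.44 to 0.33 and Sdc4 −0.42 to 0.77.

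Of the heparan sulfate genes, 1 was called between untreated genotypes, against 2 with DESeq2, 3 without a filter, 7 with the 4 libraries and 0 to 3 on leaving out a library. Between treated genotypes there were 14, against 2 with the 4 libraries and 5 to 19 on leaving out a library, and for lysosomal breakdown 8, against 1 and 3 to 6. For TGF-β in control cells there were 5, against 8 with DESeq2, 11 without a filter and 0 to 8 on leaving out a library, and in cells labelled KO 4, against 7 without a filter and 1 to 6. For the difference of responses there were 0, and 2 without a filter.

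Same-numbered libraries deviated from their group means with correlations of 0.30 (control and treated control), 0.10 (untreated genotypes), −0.47 (treated genotypes) and −0.01 (KO and treated KO), so the numbers were not taken to pair the libraries. With a replicate block the members called were 1 between untreated genotypes, 2 between treated genotypes, 1 and 1 for TGF-β in control cells and cells labelled KO, and 0 for the difference. With the replicate block the heparan sulfate genes called were 0, 11, 4, 4 and 0 in the same order, and 6 for lysosomal breakdown, and all genes called were 150, 1490, 831, 676 and 0, against 238, 1959, 1194, 889 and 0 without it. A crossed pairing of the treated libraries, chosen after seeing the data, called 4 members, 17 heparan sulfate genes and 2809 genes in all. Fitting only the libraries compared was not run for the difference of responses, which uses all 8.

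All genes called ranged, outside the block and leaving out libraries, from 137 with limma-voom to 797 with the 4 libraries between untreated genotypes, and from 402 with the 4 libraries to 2823 without a filter between treated genotypes. For the difference of responses DESeq2 called 30 genes, limma-voom 0 and edgeR without a filter 211.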
